A study of Rattus norvegicus with 6 samples.

Results

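The Hox, Meis, Pbx, Tbx, Pitx and Irx genes encode transcription factors that set positional identity in the embryo and that adult mesenchymal cells go on expressing according to their place of origin. They were followed here in vascular smooth muscle (VSM) cells cultured from the soleus feed artery (SFA), a resistance artery of the rat hindlimb that supplies the soleus muscle. Members were taken by gene symbol (Hoxa, Hoxb, Hoxc and Hoxd with a number, and Meis, Pbx, Tbx, Pitx or Irx with a number), which gave 43 of the 14475 genes in the count table. Male Fischer 344 rats aged 4 months (young) or 24 months (old) gave the cells, 3 rats in each group with 1 library of polyadenylated RNA each, and neither group carried a transgene or had a treatment. The comparison asks whether the positional transcription factors of these cells differ with age. All values come from cells grown in serum, and the passage at which RNA was taken is not given in the sources used here.

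Hox genes lie in 4 clusters, A to D, and genes with the same number in different clusters are paralogs that descend from one ancestral gene. Within a cluster, low-numbered genes are used toward the head and high-numbered genes toward the tail and the end of the limb, so that the Hox genes in use form a positional code. Meis and Pbx proteins are homeodomain factors of the TALE class that bind DNA together with Hox proteins and sharpen their choice of sites. Tbx genes encode T-box factors, among them Tbx4 of the hindlimb bud and Tbx5 of the forelimb bud and heart. Pitx1 is a hindlimb gene, and Irx genes encode Iroquois homeodomain factors.

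Total counts per library ranged from 44235674 to 59700887. Levels are given as CPM, the count over the TMM-scaled library size in units of 1e+06 counts, and were not compared between genes, since transcript lengths were not available. Of the gene counts below 20 and above 0, the share that was even lay between 68.7% and 71.1%, as when both mates of a pair are counted, so low counts may stand for fewer fragments than their value. The 8 smooth muscle markers of a list were all in the table, and 0 passed the edgeR thresholds, which 1 of all 14475 genes passed. The DESeq2 Wald test called 6 of the 8, each lower in old cells (5.68% of the genes it tested were called). At an unadjusted p under 0.05, 7 were lower in old cells, while Des overlapped between the groups (log2 fold change -0.11), and the summed levels were 11207 to 20995 CPM in young and 3448 to 5562 CPM in old libraries. Of 9 fibroblast markers, 0 passed the edgeR thresholds and 5 were higher at an unadjusted p under 0.05, as were 11.2% of all genes. DESeq2 called 3 of the 9, each higher. The old and young libraries did not overlap for 4 of the 9, beside 29.2% of all genes, and old replicate 3 had less Cd34 (0.485 CPM) than any young library. The 9 summed to 194 to 503 CPM in young and 599 to 1481 CPM in old libraries. Of 9 skeletal myogenic markers, 7 were not listed in the table, among them Pax7, Myod1 and Myog, and the 2 that were listed summed to 72.5 to 256 CPM in young and 6.36 to 18.03 CPM in old libraries, mostly from Acta1. Endothelial (5 of 8 listed, 3 with positive log2 fold changes), Schwann cell (4 of 6 listed, 3 positive) and macrophage markers (3 of 6 listed, 3 positive) summed to at most 86.6 CPM in any library, and Cdh5, Sox10 and Ptprc were not listed. Of 6 mural cell markers, 4 were listed and 3 of them had negative log2 fold changes. DESeq2 called 2 of the 4, both lower in old cells. They were Mcam (edgeR log2 fold change -3.63) and Cspg4 (-1.40), while Pdgfrb was at 0.32. The part of these marker differences in the results below was not tested, and in bulk RNA fewer cells of a type cannot be told apart from less RNA per cell.

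RefSeq names 68 protein-coding rat genes in these families, of which 25 were not listed in the table. HoxA was nearly complete, with 10 of 11 genes (Hoxa13 was not listed), and so was HoxC, with 8 of 9 genes (Hoxc13 was not listed). HoxD had 6 of 9 genes, without Hoxd1, Hoxd11 and Hoxd12. HoxB had 1 of 10 genes, Hoxb7, at a few counts. All of Meis (3 of 3) and Pbx (4 of 4) were listed, as were 7 of 13 Tbx genes, 3 of 6 Irx genes and 1 of 3 Pitx genes. Neither of the limb-bud genes Tbx4 and Tbx5 was listed. Every listed gene reached 10 counts in at least 3 libraries, and 28 of the 43 members had a mean above 1 CPM.

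By edgeR's quasi-likelihood test across the 14475 genes, 0 of the 43 members passed the thresholds of the study, an adjusted p under 0.05 and a log2 fold change of 1 or more in either direction, and 0.00691% of all genes did. At an unadjusted p under 0.05 there were 5 members, Hoxa10, Hoxb7, Hoxc10, Hoxd13 and Meis1, each lower in old cells, where 22.6% of all genes passed (11.5% lower and 11.2% higher). Hoxb7 and Hoxd13 entered the table through their young libraries only, so their direction was fixed by its filter, and 3 of the 5 remain without them. The members were thus called no more often than the table as a whole at this level. The DESeq2 Wald test on the same counts called 1 member, Meis1. It called 5.68% of the 14183 genes to which it gave an adjusted p, and 4 members (Hoxa2, Hoxb7, Hoxc12 and Hoxd13) had none. DESeq2 gave 5 members an unadjusted p under 0.05 (26.1% of all genes with a p), and limma-voom gave it to 6 members (23.1% of all genes) and called 0. The 3 old libraries lay entirely to one side of the 3 young libraries for 8 members, 7 lower and 1 higher, while 29.2% of all genes separated in this way. The 7 include Hoxb7 and Hoxd13, whose separation was fixed by the filter. Among members with a mean above 1 CPM, 4 of 28 separated (14.3%), beside 31.2% of all genes above that mean. Over the 25 Hox genes the median log2 fold change was -0.29, with 19 lower and 6 higher, beside a median of 0.02 over all genes. Hoxb7 and Hoxd13 are among the 19. Without old replicate 3 the Hox median was -0.06, with 16 lower and 9 higher.

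**Figure D1:**
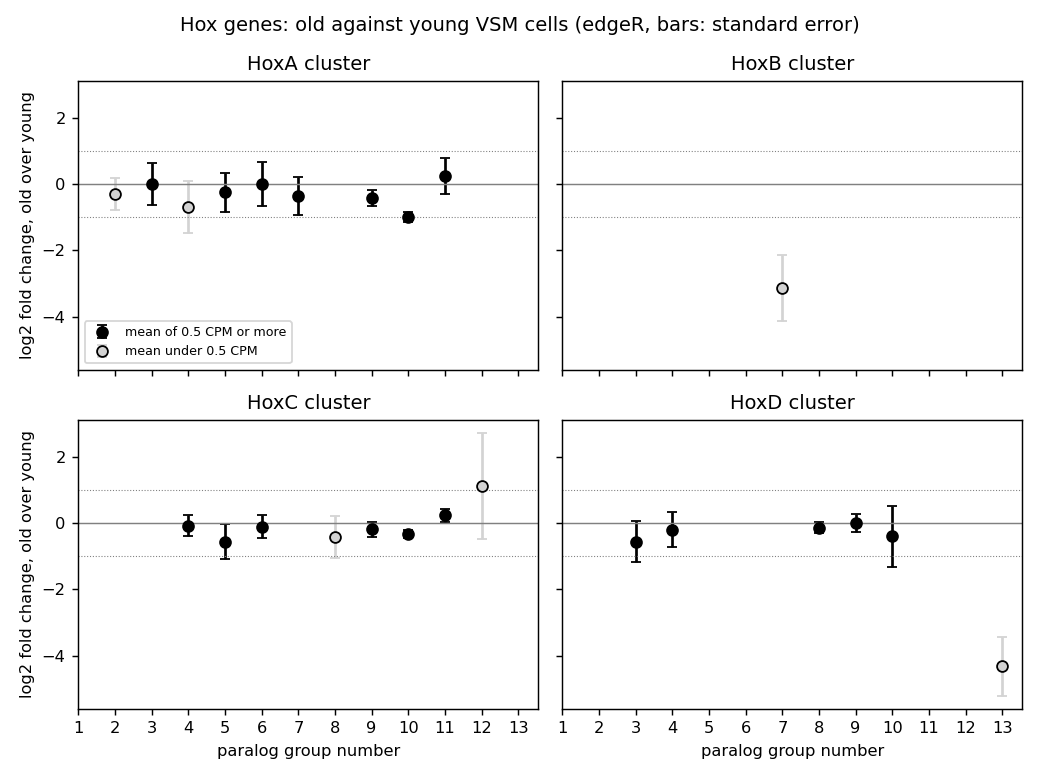
Log2 fold change of old over young VSM cells (vertical axis, edgeR; bars are standard errors) for 24 of the 25 Hox genes in the table, by cluster and paralog group number (horizontal axis); gray points have a mean under 0.5 CPM and dotted lines mark a log2 fold change of 1 in either direction. Hoxa10 has the smallest error in HoxA and lies at -0.98, and Hoxb7 and Hoxd13, the lowest points, rest on few counts.

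Hoxa10 (ENSRNOG00000065199), a posterior Hox gene of the hindlimb and the uterus, had 77.1, 90.0 and 107 CPM in the young libraries and 51.8, 44.9 and 42.2 CPM in the old libraries. Each old library was below each young library, and the lowest young value exceeded the highest old value by more than the spread of the old group. The young mean was 91.4 ± 15.1 CPM (SD, n = 3) and the old mean 46.3 ± 4.92 CPM (SD, n = 3), a log2 fold change of -0.98 (standard error, SE, 0.15, 95% interval -1.34 to -0.62). The quasi-likelihood test of edgeR gave it an adjusted p of 0.0557, the lowest among the members, and DESeq2 gave 4.72e-06. Its DESeq2 log2 fold change was -0.99, just short of the limit of 1, so DESeq2 did not call it. Leaving out 1 library at a time, the edgeR log2 fold change ranged from -1.09 to -0.85, and without old replicate 1 it was -1.07 with an adjusted p of 0.0306, past both thresholds. The young libraries ordered the same way for Hoxa10 as for the summed smooth muscle markers, which were 11207, 16226 and 20995 CPM. The old libraries did not keep the order of the summed markers (5562, 3448 and 3532 CPM). They did keep the order of the median deviation of the 8 markers from their mean over libraries. That deviation was -0.51, -0.98 and -1.12 in old replicates 1 to 3 on the log2(CPM + 0.1) scale. The part of the markers in this difference was not tested.

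Hoxa10 has 2 annotated starts in RefSeq, 5568 bases apart, and gene-level counts add the transcripts of both. The 250 bases before each start and before the start of Meis1 are shown because these were the members with an adjusted p under 0.05 in DESeq2. They come from the RefSeq promoter table of the GRCr8 assembly, not the assembly the reads were aligned to, and all 3 read from the minus strand. The windows are chr4:82671491-82671740 for the outer and chr4:82665923-82666172 for the inner start of Hoxa10, and chr14:97495084-97495333 for Meis1. Capitals mark matches on either strand. The letters searched for were TATAAA for the TATA box and, for the CCAAT box, the letters of its name. The core site of Meis and Pknox was searched as TGACAG. The joint site of Pbx and Hox was searched as TGATNNAT.
Hoxa10 outer start: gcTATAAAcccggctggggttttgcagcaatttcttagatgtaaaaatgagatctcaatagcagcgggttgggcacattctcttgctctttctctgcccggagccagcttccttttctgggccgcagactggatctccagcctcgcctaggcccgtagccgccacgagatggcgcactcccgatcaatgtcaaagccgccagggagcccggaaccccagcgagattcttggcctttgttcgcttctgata
Hoxa10 inner start: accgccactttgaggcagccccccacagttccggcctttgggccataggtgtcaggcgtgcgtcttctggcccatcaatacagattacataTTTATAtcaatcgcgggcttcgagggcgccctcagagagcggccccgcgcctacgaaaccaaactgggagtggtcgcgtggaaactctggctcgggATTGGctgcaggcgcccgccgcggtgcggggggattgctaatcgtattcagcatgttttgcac
Meis1: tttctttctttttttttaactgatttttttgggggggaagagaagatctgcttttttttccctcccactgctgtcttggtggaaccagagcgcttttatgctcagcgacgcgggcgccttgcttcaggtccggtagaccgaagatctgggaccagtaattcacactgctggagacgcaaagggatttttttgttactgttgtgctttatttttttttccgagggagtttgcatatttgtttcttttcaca

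The inner start of Hoxa10 had a TATAAA match at -159 and a CCAAT match at -63, the outer start had a TATAAA match at -248, and the Meis1 window had none of the 4 motifs. Positions count the first base of the match back from the start. Windows were available for 26 members (28 windows). TATAAA was found in 6 of them (21.4%, against 12.9% of all 33469 windows), CCAAT in 14 (50%, against 34.0%), TGACAG in 3 (10.7%, against 15.8%) and TGATNNAT in 3 (10.7%, against 7.96%). The members' windows had a median G+C content of 59.8% and a median ratio of observed to expected CpG of 0.692, beside 51.2% and 0.383 over all windows. These matches describe letters in a short window and not binding.

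The paralogs of Hoxa10 had smaller differences, and whether they differed from that of Hoxa10 was not tested. Hoxc10 (ENSRNOG00000016149), the HoxC member of group 10 and a gene of hindlimb and lumbar position, had 21.4, 17.9 and 22.4 CPM in young and 16.2, 17.5 and 15.9 CPM in old libraries. Every old value was under every young value by a narrow margin, with a log2 fold change of -0.31 (SE 0.12, edgeR adjusted p = 0.199). Hoxd10 had 0.310, 0.299 and 1.30 CPM in young and 0.0804, 0.923 and 0.448 CPM in old libraries, which overlapped. The summed level of the 3 group 10 genes was 98.8, 108 and 131 CPM in young and 68.0, 63.4 and 58.5 CPM in old libraries, with an exact two-sided permutation p of 0.1, the smallest that 3 libraries against 3 can give (adjusted over 22 totals, 0.44). Most of this total came from Hoxa10.

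The neighbor of Hoxa10, Hoxa11, had 15.7, 3.14 and 10.3 CPM in young and 15.4, 9.93 and 9.57 CPM in old libraries. Young replicate 2 was the low library, and the groups overlapped. Hoxc11, its HoxC paralog, had 12.6, 8.48 and 11.2 CPM in young and 12.5, 10.9 and 14.8 CPM in old libraries, with young replicate 2 again the lowest. The log2 fold changes of Hoxa11 and Hoxc11 were 0.26 (95% interval -1.05 to 1.57) and 0.25 (95% interval -0.22 to 0.71), and both intervals included 0. Whether Hoxa10 and Hoxa11 differed in their response was not tested.

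Group 9 genes mark the thoracic to lumbar trunk and the upper limb. Hoxa9 had 13.7, 19.2 and 13.03 CPM in young and 12.7, 13.5 and 8.25 CPM in old libraries, -0.41 on the log2 scale (SE 0.24, edgeR adjusted p = 0.342). Hoxc9 and Hoxd9 had log2 fold changes of -0.18 and 0.01, and their old libraries fell inside or next to the young range. Hoxd9 ranged from 4.03 to 7.55 CPM over the 6 libraries and Hoxc9 from 1.60 to 2.46 CPM.

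Hoxd13 and Hoxb7 had the lowest log2 fold changes but few counts. Hoxd13 (ENSRNOG00000001588), the last gene of HoxD and a gene of the digits and genital tract, was counted 12, 24 and 12 times in young and 2, 0 and 0 times in old cells. Hoxb7 (ENSRNOG00000007611), a trunk gene of HoxB, was counted 10, 12 and 16 times in young and 4, 0 and 0 times in old cells. Both reached the 10 counts of the table's filter in their young libraries only, and a gene that passed in this way had to differ between the groups, so the values below are a description and support nothing. A count of 0 allowed up to 0.0577 CPM in old replicate 2 and 0.0560 CPM in old replicate 3, taking 3 counts as the limit. The ratio of young over old was 24.1 for Hoxd13 (exact 95% counting interval 6.33 to 205) and 9.55 for Hoxb7 (3.44 to 36.9). With counts halved to stand for read pairs the intervals widened to 3.94 to 993 and to 2.31 to 84.6. These intervals cover counting error only and not the spread between cultures, and edgeR gave adjusted p of 0.0793 and 0.157.

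**Figure D2:**
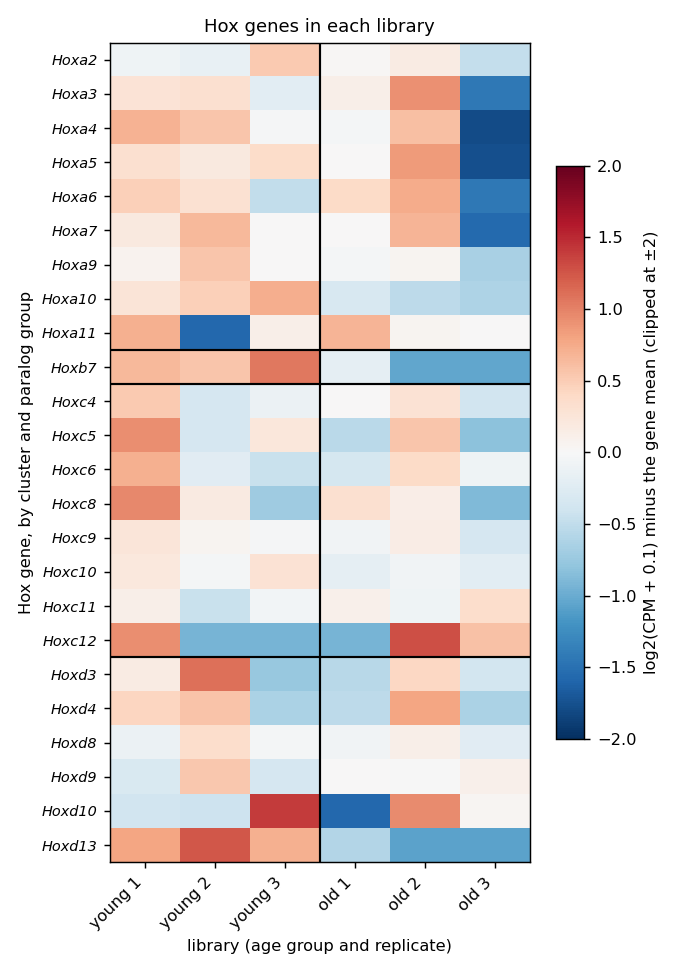
Log2(CPM + 0.1) of 24 of the 25 Hox genes in each of the 6 libraries, minus the gene's mean over the libraries (color, clipped at 2 in either direction); rows follow cluster and paralog group, horizontal lines separate the clusters and the vertical line separates young from old. Hoxa2 to Hoxa7 are lowest in old replicate 3, as are Hoxa9 and Hoxa10, and Hoxa10 is lower in each of the 3 old libraries than in the 3 young libraries.

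The anterior and middle HoxA genes were lowest in 1 old culture, a grouping chosen after the values were seen and described without a test. For each of Hoxa2, Hoxa3, Hoxa4, Hoxa5, Hoxa6 and Hoxa7, old replicate 3 alone had the lowest CPM of the 6 libraries, as it had for 23.4% of all genes. This was not particular to them. Old replicate 3 alone was also lowest for Hoxa9 and Hoxa10, and for 16 of the 25 Hox genes (64%). Hoxa5, which acts in lung and upper trunk development, had 4.52, 4.11 and 4.64 CPM in young libraries, 3.62 and 6.58 CPM in old replicates 1 and 2 and 0.989 CPM in old replicate 3. Hoxa7, a trunk gene, had 2.30, 3.19 and 1.99 CPM in young libraries and 2.01, 3.27 and 0.616 CPM in old libraries. For each of Hoxa2 to Hoxa7 the groups overlapped.

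Hoxa3 had 12 counts in old replicate 3 and 32 to 80 in the others, Hoxa4 had 2 and 18 to 36, and Hoxa6 had 10 and 22 to 62. Hoxa2 had 6 to 16 counts throughout. The median deviation of the 6 genes from their mean over libraries was -1.49 on the log2(CPM + 0.1) scale in old replicate 3 and between -0.01 and 0.72 in the other libraries. Hoxa9 to Hoxa11 had a median deviation of -0.61 there. With all libraries the 6 genes had a median log2 fold change of -0.27, 4 lower and 2 higher, and without old replicate 3 it was 0.14, 2 lower and 4 higher. In that library the smooth muscle markers summed to 3532 CPM and the fibroblast markers to 939 CPM, both between the values of the other old libraries. Gene by gene, old replicate 3 lay further out than these sums show. The median deviation of the smooth muscle markers was -1.12 there, the lowest of the 6 libraries. That of the fibroblast markers was 1.504, the highest of the 6. Old replicate 3 alone was lowest for 3 of the 8 smooth muscle markers, Cnn1, Smtn and Des. The summed mural markers (1516 CPM) and endothelial markers (20.0 CPM) in old replicate 3 were the highest of the 6 libraries. Pdgfrb gave 1411 CPM of the mural sum, while Mcam (6.08 CPM) and Cspg4 (97.8 CPM) were at their lowest there. Tek gave 16.8 CPM of the endothelial sum. In RefSeq, Hoxa3 overlaps Hoxa4, Hoxa5 and Hoxa6, and the antisense gene Hoxaas3 overlaps several of them, so these genes are uncertain as separate counts.

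The summed HoxA level was 118, 125 and 141 CPM in young and 89.5, 83.6 and 62.7 CPM in old libraries, which did not overlap. The exact two-sided permutation p was 0.1, the smallest possible, and 0.44 adjusted over 22 totals. Among single genes, 29.2% of the table did not overlap. Most of the HoxA total came from Hoxa10. The summed level of Hoxa2 to Hoxa7 overlapped, at 8.43 to 9.89 CPM in young and 2.16 to 13.4 CPM in old libraries. Hoxa10 held 65.4%, 72.0% and 76.1% of the HoxA counts in the young and 57.8%, 53.7% and 67.3% in the old libraries, which overlapped. The log2 ratio of the HoxA total lay between -0.82 and -0.56 with each library left out.

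HoxC totals overlapped between the groups. The summed HoxC level was 54.1, 37.3 and 44.1 CPM in young and 39.5, 44.7 and 41.2 CPM in old libraries (exact permutation p = 0.7). Young replicate 1 had the highest Hoxc4, Hoxc5, Hoxc6, Hoxc8 and Hoxc9, genes that mark the neck and trunk, as in Hoxc6 with 10.2 CPM there against 4.50 to 8.02 CPM in the other 5 libraries. Hoxc4 and Hoxc5 spanned 2.11 to 4.03 and 0.578 to 2.19 CPM, and Hoxc8 0.187 to 0.930 CPM. RefSeq has Hoxc6 overlap Hoxc4 and Hoxc5, so these 3 genes are uncertain as separate counts. Hoxc12, a gene of the posterior end of the cluster, had 12, 0 and 0 counts in young and 0, 19 and 10 counts in old libraries and is given without a fold.

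In HoxD, Hoxd8 (ENSRNOG00000071108), a gene of the trunk and limb base, took the most counts, with 17.4, 24.1 and 18.5 CPM in young and 17.99, 20.5 and 16.1 CPM in old libraries. Its groups overlapped, at -0.14 on the log2 scale (95% interval -0.53 to 0.26, edgeR adjusted p = 0.632), and without young replicate 2 the value was 0.02. Hoxd4 ranged from 1.14 to 3.19 CPM and Hoxd3 from 0.305 to 1.36 CPM, and in both genes young replicate 2 was above the other young libraries. The summed HoxD level was 25.3, 36.5 and 25.5 CPM in young and 24.9, 30.6 and 23.7 CPM in old libraries (exact permutation p = 0.5).

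Meis1 (ENSRNOG00000004606), a cofactor of Hox proteins that marks proximal limb identity, had 12.5, 19.2 and 39.4 CPM in the young libraries and 8.82, 8.75 and 8.92 CPM in the old libraries. The old libraries were nearly alike, each was below each young library, and the young libraries were spread widely, with young replicate 3 highest. The young mean was 23.71 ± 13.997 CPM (SD, n = 3) and the old mean 8.83 ± 0.0828 CPM (SD, n = 3), -1.42 on the log2 scale (SE 0.40, 95% interval -2.40 to -0.45, edgeR adjusted p = 0.129). DESeq2 called Meis1 with an adjusted p of 0.00923. The DESeq2 call was lost without young replicate 3 (log2 fold change -0.85, adjusted p = 0.0146) and without old replicate 2 (log2 fold change -1.42, adjusted p = 0.0624). The young libraries again followed the order of the smooth muscle markers, and the old libraries did not. The same young order held for members whose groups overlapped, such as Meis2, Tbx15, Tbx18 and Irx5. The part of the markers in the Meis1 difference was not tested.

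The other Meis genes had higher means in old cells. Meis2 (ENSRNOG00000004730), a gene of limb, heart and cranial mesenchyme, had 12.1, 14.6 and 21.9 CPM in young and 17.6, 18.9 and 24.4 CPM in old libraries, 0.33 on the log2 scale (SE 0.25, 95% interval -0.27 to 0.93, edgeR adjusted p = 0.451). Meis3, a hindbrain and neural crest gene, had 14.1, 13.05 and 13.05 CPM in young and 12.9, 16.9 and 20.2 CPM in old libraries, a log2 fold change of 0.31 (95% interval -0.11 to 0.73). In both genes the groups overlapped. As a share of all Meis counts, Meis1 made up 32.3%, 41.0% and 53.0% in the young and 22.4%, 19.7% and 16.7% in the old libraries, with no overlap. This share was chosen after the values were seen and was given no test.

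**Figure D3:**
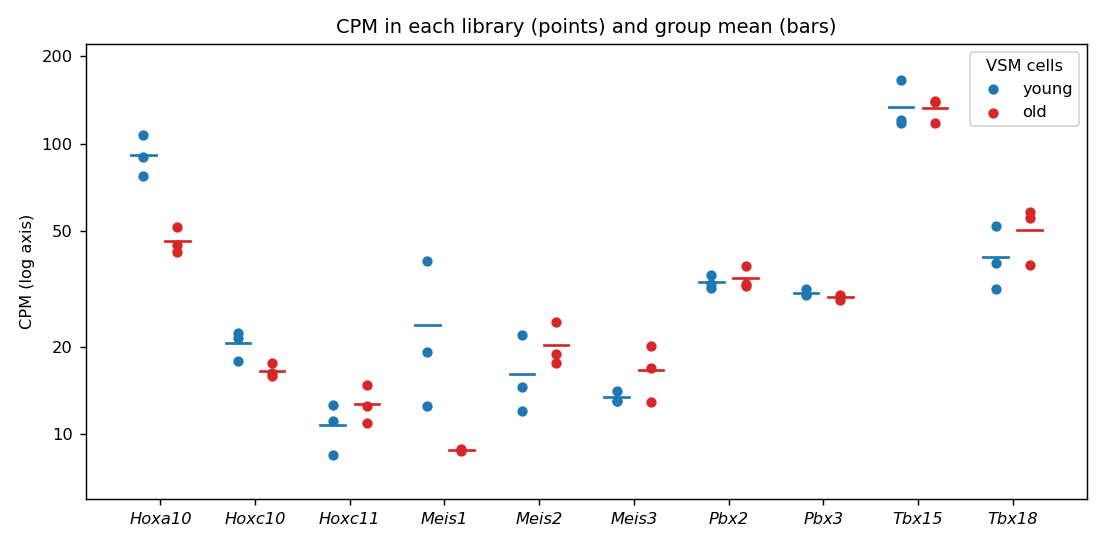
CPM on a log axis in the 3 young (blue) and 3 old (red) libraries for 10 positional genes; points are libraries and bars are group means. The points separate by age for Hoxa10, Hoxc10 and Meis1 and overlap for the other 7 genes.

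Pbx genes, whose products pair with both Hox and Meis proteins, include Pbx2 and Pbx3, whose groups overlapped. Pbx2 ranged from 31.8 to 38.0 CPM over the 6 libraries and Pbx3 from 28.9 to 31.7 CPM. Their 95% intervals on the log2 scale were -0.20 to 0.29 and -0.24 to 0.14, so a log2 change of 1 in either gene lay outside them. Pbx4 was low, at 0.0804 to 0.672 CPM.

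Tbx15 (ENSRNOG00000019565), a T-box factor of limb and trunk mesenchyme and of muscle and fat position, took the most Tbx counts, with 117, 120 and 165 CPM in young and 117, 139 and 140 CPM in old libraries. The groups overlapped and the log2 fold change was -0.02 (standard error 0.16, 95% interval -0.41 to 0.37, adjusted p = 0.956 from edgeR). The value was 0.00 with scaling by library size only, 0.16 without young replicate 3 and 0.06 without old replicate 1, so its sign was not settled. Tbx18, a mural cell gene that marks pericytes and smooth muscle of many organs, had 31.5, 39.0 and 51.9 CPM in young and 38.1, 58.0 and 55.7 CPM in old libraries, a log2 fold change of 0.31 (95% interval -0.25 to 0.87). The old mean was thus above the young mean for Tbx18, while the summed smooth muscle markers were lower in old cells.

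Tbx2 and Tbx3, paired repressors of limb and heart patterning, ranged from 2.37 to 6.37 CPM and from 4.198 to 6.33 CPM with log2 fold changes of 0.01 and -0.16. Tbx6, a gene of somite formation, and Tbx10 were separated by age at very low counts. Tbx6 had 4, 16 and 4 counts in young and 15, 18 and 17 counts in old libraries, 0.0886, 0.266 and 0.0814 CPM against 0.302, 0.346 and 0.317 CPM (log2 fold change 1.10, SE 0.53, edgeR adjusted p = 0.269). Tbx10 had 19, 37 and 16 counts in young and 6, 16 and 12 counts in old libraries (log2 fold change -1.06, SE 0.47, edgeR adjusted p = 0.237). In RefSeq, Tbx6 overlaps Ppp4c and Tbx10 overlaps Acy3, so part of these counts may belong to the neighbors. Tbx19, a pituitary factor, was at 0.244 to 0.775 CPM. The summed Tbx level was 159, 173 and 227 CPM in young and 168, 207 and 206 CPM in old libraries (exact permutation p = 0.9).

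**Figure D4:**
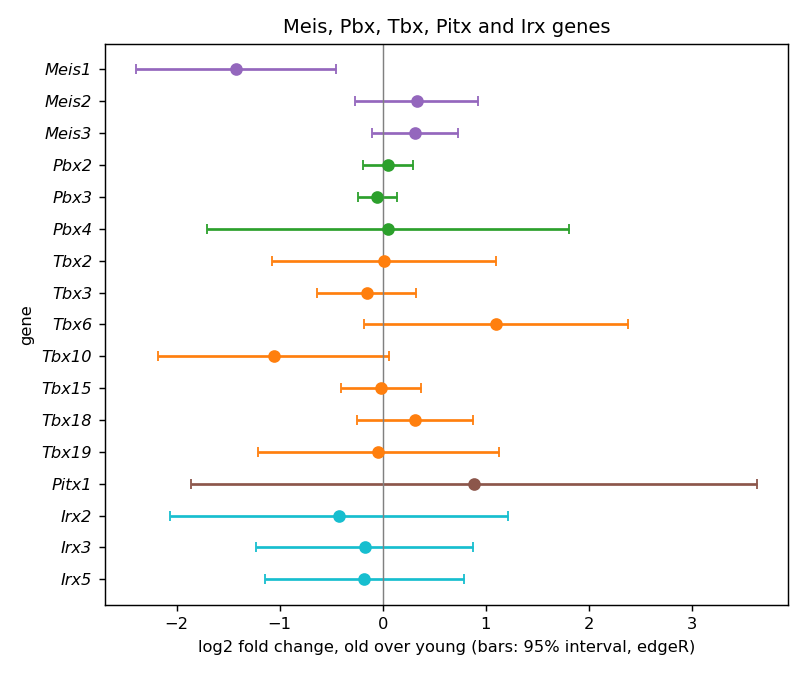
Log2 fold change of old over young VSM cells (horizontal axis, edgeR) with 95% intervals for 17 Meis, Pbx, Tbx, Pitx and Irx genes of the table. The interval of Meis1, -2.40 to -0.45, lies below 0, and the intervals of the other 16 genes include it.

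Pitx1 (ENSRNOG00000011423), which sets hindlimb identity upstream of Tbx4, had 16, 0 and 28 counts in young and 54, 18 and 14 counts in old libraries. At this depth the groups overlapped, with 0.89 on the log2 scale (SE 1.14, edgeR adjusted p = 0.657), which was 0.00 without old replicate 1. Irx5 (ENSRNOG00000011180), a factor of heart and limb patterning, had 2.26, 3.39 and 4.72 CPM in young and 2.65, 4.50 and 1.996 CPM in old libraries (log2 fold change -0.18, SE 0.40, edgeR adjusted p = 0.806), and the value was 0.11 without young replicate 3. Irx3, its neighbor on the chromosome, ranged from 0.930 to 2.61 CPM and Irx2 from 0.728 to 4.09 CPM. The 3 Irx genes had log2 fold changes of -0.43 to -0.18 and overlapping groups.

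Genes that act with or upstream of the Hox genes were read from lists, and 0 of them passed the edgeR thresholds. Retinoic acid turns on Hox genes in the embryo. Of 13 listed retinoic acid pathway genes (18 on the list), 5 had an unadjusted p under 0.05 in edgeR (22.6% of all genes), 1 lower and 4 higher, and DESeq2 called 2 (5.68% of the genes it tested). Aldh1a2, the enzyme that makes retinoic acid in mesoderm, had 1.11, 0.299 and 0.407 CPM in young and 3.88, 4.21 and 4.18 CPM in old libraries (log2 fold change 2.77, SE 0.51, edgeR adjusted p = 0.0658 and 3.87e-06 from DESeq2). Rarb, a receptor and a direct target of retinoic acid, had 9.81, 9.66 and 7.002 CPM in young and 4.34, 3.29 and 5.62 CPM in old libraries (log2 fold change -0.998, SE 0.25, edgeR adjusted p = 0.110 and 0.00570 from DESeq2). Rarg, the receptor of mesenchyme, had 84.6, 80.3 and 84.0 CPM in young and 121, 109 and 120 CPM in old libraries (log2 fold change 0.49, adjusted p = 0.0644 from edgeR). In each of these 3 genes the groups did not overlap. Rxra and Rxrb, the partner receptors, had log2 fold changes of 0.38 and 0.27 (adjusted p of 0.190 and 0.212 from edgeR).

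Polycomb complexes keep Hox genes silent. Of their 27 genes, 6 had an unadjusted p under 0.05 in edgeR (22.6% of all genes), 5 lower and 1 higher. DESeq2 called 0 of them (5.68% of the genes it tested). Short of the fold limit, it gave 3 of them an adjusted p under 0.05 (12.5% of the genes it tested). These were Pcgf2 (0.00225), Eed (0.0109) and Phc2 (0.0150). The median log2 fold change of the 27 was -0.11. Ezh2, the enzyme that methylates histone H3, had 20.9, 16.2 and 24.9 CPM in young and 16.2, 9.62 and 8.90 CPM in old libraries (log2 fold change -0.84, SE 0.28, edgeR adjusted p = 0.164), and its partner Eed had 43.8, 46.7 and 44.4 CPM in young and 37.6, 32.9 and 31.7 CPM in old libraries (log2 fold change -0.40, adjusted p = 0.105 from edgeR). Ezh2 is also high in dividing cells. Rbbp7 and Phc2 had log2 fold changes of -0.47 and -0.36, and Pcgf2 of 0.39.

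Trithorax and histone H3 demethylase genes, which oppose Polycomb, had 3 of 11 listed genes at an unadjusted p under 0.05, each higher. They were Kdm6b, a demethylase (log2 fold change 0.76, adjusted p = 0.120 from edgeR), Kmt2c (0.46, adjusted p = 0.156) and Men1 (0.45, adjusted p = 0.166), and DESeq2 called 0 of the list. Short of the fold limit, DESeq2 gave 1 of the list, Kdm6b, an adjusted p under 0.05 (0.0194), as it gave 12.5% of the genes it tested. Of the 5 other TALE genes, 1 passed an unadjusted p of 0.05, Pknox2, a Meis relative, with a log2 fold change of 1.08 (adjusted p = 0.181 from edgeR). These shares may be set beside the 22.6% of all genes with an unadjusted p under 0.05.

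Among 21 listed limb and mesoderm patterning factors (39 on the list), 6 had an unadjusted p under 0.05, 4 lower and 2 higher (22.6% of all genes had one), and DESeq2 called 4, each lower (5.68% of the genes it tested). Msx1, a homeobox gene of limb mesenchyme that is induced by BMP signals, had 26.2, 24.0 and 17.6 CPM in young and 11.6, 9.54 and 11.1 CPM in old libraries (log2 fold change -1.07, SE 0.18, edgeR adjusted p = 0.0600 and 1.19e-05 from DESeq2). Foxc2, a factor of vessel and lymph vessel development, had 5.85, 9.81 and 15.0 CPM in young and 4.06, 1.65 and 2.72 CPM in old libraries (log2 fold change -1.86, adjusted p = 0.106 from edgeR). Its relative Foxc1 had a log2 fold change of -1.05 (adjusted p = 0.121 from edgeR). Twist1 and Gli3, factors of limb bud mesenchyme, had log2 fold changes of 0.65 and 0.76 with old libraries above the young libraries (adjusted p of 0.114 and 0.116 from edgeR). The summed fibroblast markers were higher and the summed smooth muscle markers lower in the same old libraries, and their part in these values was not tested.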

How the data were processed

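Per the Methods, the authors trimmed reads with Cutadapt 3.5 (TrimGalore 0.6.7), mapped them to Rnor 6.0 with STAR 2.7.10b and counted genes with featureCounts (Subread 2.0.8). They deposited raw counts, whole numbers per gene without normalization, after a low-count filter. Genes carry Ensembl identifiers although the Methods name a RefSeq annotation, so the annotation counted on is not settled, and which genes are listed or overlap depends on it. Strand and mate options were not stated. Every gene reached 10 counts in 3 or more libraries, and 0 per-library columns were left unused. Groups and replicate numbers came from sample titles.

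Old was tested against young in R 4.3.3 with edgeR 4.0.16 (TMM, quasi-likelihood F test, Benjamini-Hochberg over 14475 genes, no further filter, no covariates). Standard errors are the absolute log2 fold change over the square root of F. Alternatives were DESeq2 1.42.0 (292 genes had no adjusted p), limma-voom (limma 3.58.1), other size factors, 2 filters, halved counts, a replicate block and each library left out. Summed levels were tested on log2(CPM + 0.01) with an exact permutation test over libraries. The fits were tested on simulated data in which 200 genes above a mean of 1 CPM were changed. At a log2 change of 1 and an adjusted p under 0.05, edgeR recovered 17%, DESeq2 63% and limma-voom 0.5%. False calls there were 5, 72 and 0. At a log2 change of 2, with the fold limit added, they recovered 84.5%, 95% and 82.5%, with 8, 52 and 9 false calls. A log2 change of 1 can thus go uncalled in edgeR. RefSeq tables of GRCr8 were matched by symbol. The members and gene lists were chosen with earlier results of these data known. Named genes were those with an unadjusted p under 0.05 or a log2 fold change beyond 1 (related lists: at most 5 each), the member of each cluster or family with the most counts, and Pitx1, Tbx4 and Tbx5, with other members given by values. Results of some members are not reported here. P-values measure the spread between cultures, 1 per rat. Intervals on counts cover counting error only.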

Additional observations from a re-analysis of the deposited data

How the results depend on the processing

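With 3 libraries per group, members under 0.5 CPM rest on few counts. Over the whole table edgeR called 1 gene, and 65 among genes above 1 CPM in 3 libraries, against 0 with limma-voom and 805 with DESeq2. Leaving out each library gave 0 to 732 in edgeR. In an alternative chosen after seeing the data, DESeq2 gave 737, 551 and 600 without young replicates 1, 2 and 3 and 1377, 614 and 651 without old replicates 1, 2 and 3. Among the members edgeR called 0, DESeq2 1 (Meis1) and edgeR with an adjusted p under 0.1 and the same fold limit 1 (Hoxd13; Hoxa10 passed that p but not the fold limit), and leaving out libraries gave 0 to 3 in edgeR and 0 to 4 in DESeq2. Without old replicate 1 edgeR called Hoxa10, Hoxb7 and Hoxd13, the latter pair with no old counts left, so that their calls support nothing. DESeq2 called Hoxa10 and Meis1 without young replicate 1 or 2, Hoxd13 and Meis1 without old replicate 3, and Hoxa10, Hoxb7, Hoxd13 and Meis1 without old replicate 1. The Hox median log2 fold change ranged from -0.55 without old replicate 2 to -0.06 without old replicate 3. Values near 0 changed sign when 1 library was left out. On the log2 scale they ranged from -0.226 to 0.0371 for the HoxC total, -0.241 to 0.0463 for HoxD, -0.380 to 0.0938 for Meis, -0.0421 to 0.217 for Tbx, -0.655 to 0.109 for Irx, -0.233 to 0.0210 for Hoxd8, -0.110 to 0.158 for Tbx15 and -0.577 to 0.108 for Irx5. With library size only Tbx15 was at 0.00362. The cause was not tested. Deviations from the group mean correlated across genes at 0.03, 0.26 and 0.26 for same-numbered libraries. For differently numbered libraries the correlations ranged from -0.40 to 0.29. These values do not settle whether the replicate numbers pair the samples. With the replicate block edgeR called 1 gene and 0 members, the adjusted p of Hoxa10 was 0.103, and 7 members had an unadjusted p under 0.05, as had 22.5% of all genes.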
